A study of Mus musculus with 6 samples.

Results

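Laminin-type basement membrane genes were read by 9 of 41006 array probes, which covered 7 of the 10 genes looked for and 7 of 12323 genes named on the array. Lama1 and Lamb1 had 2 probes each, and Lamc1, Lamb2, Nid1, Nid2 and Sparc had 1 each. Members were chosen by gene name, through the transcript accession printed for each probe. Lama4, Lama5 and Hspg2 are not analysed here. On each of the 6 arrays all 9 probes exceeded background clearly in the sample channel, so none was lost to the filter on dim probes.

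Two-colour Agilent arrays, 6 in all, compared 3 kinds of cultured mouse cells, with 2 arrays each. Multipotent adult progenitor cells (MAPC) were adherent marrow cells depleted of CD45+ and Ter119+ cells after 4 weeks and plated at 10 per well. They were carried past 80 population doublings at 5% oxygen and 6% CO2, with 2% serum, LIF at 1000 U/mL, EGF at 10 ng/mL and PDGF-BB. Both MAPC arrays carry the description of 1 clone with high Oct4. Embryonic stem cells (ESC) were C57BL/6, kept on irradiated embryonic fibroblasts in 15% fetal calf serum with LIF and plated without feeders before RNA was taken. Neurospheres (NS) were floating forebrain cells of C57BL/6 embryos at E11.5, grown in bFGF and EGF at 20 ng/mL each. The sample was labelled with Cy3 on every array and set against a Cy5 reference pooled from 11 mouse cell lines, without a dye swap. Each cell type had a culture medium of its own, and oxygen and CO2 levels are stated for MAPC alone. Effects of medium, of oxygen and CO2, and of cell type cannot be told apart. Because the MAPC arrays share a clone, p-values involving MAPC say nothing of the spread between clones, and for all groups they may measure technical spread. In such bulk RNA, fewer cells of a type and less RNA per cell cannot be told apart.

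A laminin is a cross-shaped trimer of an alpha, a beta and a gamma chain, assembled inside the cell and secreted, where it polymerizes into a sheet beneath epithelia. The alpha 1, beta 1 and gamma 1 chains, encoded by Lama1, Lamb1 and Lamc1, form laminin-111, the laminin of the earliest embryonic basement membranes. Nidogens 1 and 2 link the laminin sheet to the type IV collagen network. SPARC is a secreted calcium-binding protein that binds collagen. Parietal endoderm, which lays down the thick Reichert's membrane of the rodent embryo, is a textbook producer of laminin-111, nidogen, type IV collagen and SPARC.

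Each probe is a 60-base oligonucleotide, and its first 30 bases are shown for the probes on which the results turn: both Lama1 probes, which gave opposite directions by ratio, both Lamb1 probes, Lamc1 and Sparc. All letters are in lower case, since no part is singled out.
Lama1 A_66_P118600: atgttgaactaaagccacacggacaacaga
Lama1 A_66_P136332: gatatgcagctcttgtcaaggaaggttaca
Lamb1 A_66_P101600: ccgaggcagtcatctacaaataacccatca
Lamb1 A_66_P105430: cgaaaaagtagtatattctgtaaaacagaa
Lamc1 A_66_P130669: aactgcgctggagattgaagaacttaaccg
Sparc A_66_P134814: actgggaggctgtttcaggaaagtgagact
GC content was 36.7% and 38.3% for the Lama1 probes, 35.0% and 33.3% for the Lamb1 probes, 43.3% for Lamc1 and 45.0% for Sparc. None of the 9 probes shared a run of 16 bases with another of the 41006 probes on the same strand.

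In the sample channel, whose dye labelled the cells' own RNA, every chain of laminin-111 was brightest in MAPC. The background-subtracted signal of Lama1 A_66_P136332 was 34536 and 32080 in MAPC, 129 and 176 in ESC, and 71.8 and 60.5 in NS. The MAPC values stood far above all 4 others, and ESC and NS did not overlap. Lama1 A_66_P118600 read 65166.5 and 65168.1 in MAPC, where all 29 and all 30 of its pixels were saturated. It read 1363 and 1483 in ESC and 429.8 and 467 in NS, so the groups did not overlap on this probe either.

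Lamb1, the beta 1 chain, gave the same order on both probes. A_66_P101600 was saturated on both MAPC arrays, at 65159.8 and 65161.7, and read 7486 and 7487 in ESC and 1322 and 1445 in NS. A_66_P105430 read 25066 and 21672 in MAPC, 1103 and 1011 in ESC, and 171 and 185 in NS. MAPC exceeded ESC, and ESC exceeded NS, on every array.

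Lamc1, the gamma 1 chain shared by most laminins, read 3095 and 2651 in MAPC, 100.4 and 112 in ESC, and 82.1 and 63.2 in NS. ESC and NS lay close together, without overlap. Sparc read 60978 and 48062 in MAPC, 7957 and 7369 in ESC, and 3419 and 3065 in NS. On the first MAPC array 6 of its 31 pixels were saturated, so that value is slightly capped.

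The linkers ranked the cells in the same order. Nid1 read 2177 and 2881 in MAPC, 1045 and 1299.97 in ESC, and 295 and 271 in NS. Nid2 read 6299.7 and 5809.7 in MAPC, 1809 and 1631 in ESC, and 198 and 235 in NS. Lamb2, the beta 2 chain found in muscle, kidney and synaptic basement membranes, was the exception: 2998 and 3081 in MAPC, 1113 and 1081 in ESC, and 2890.1 and 3282 in NS. MAPC and NS overlapped on this probe, and ESC lay below both. These are levels on a signal scale, and a level of a probe cannot be set against that of another probe.

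**Figure D1:**
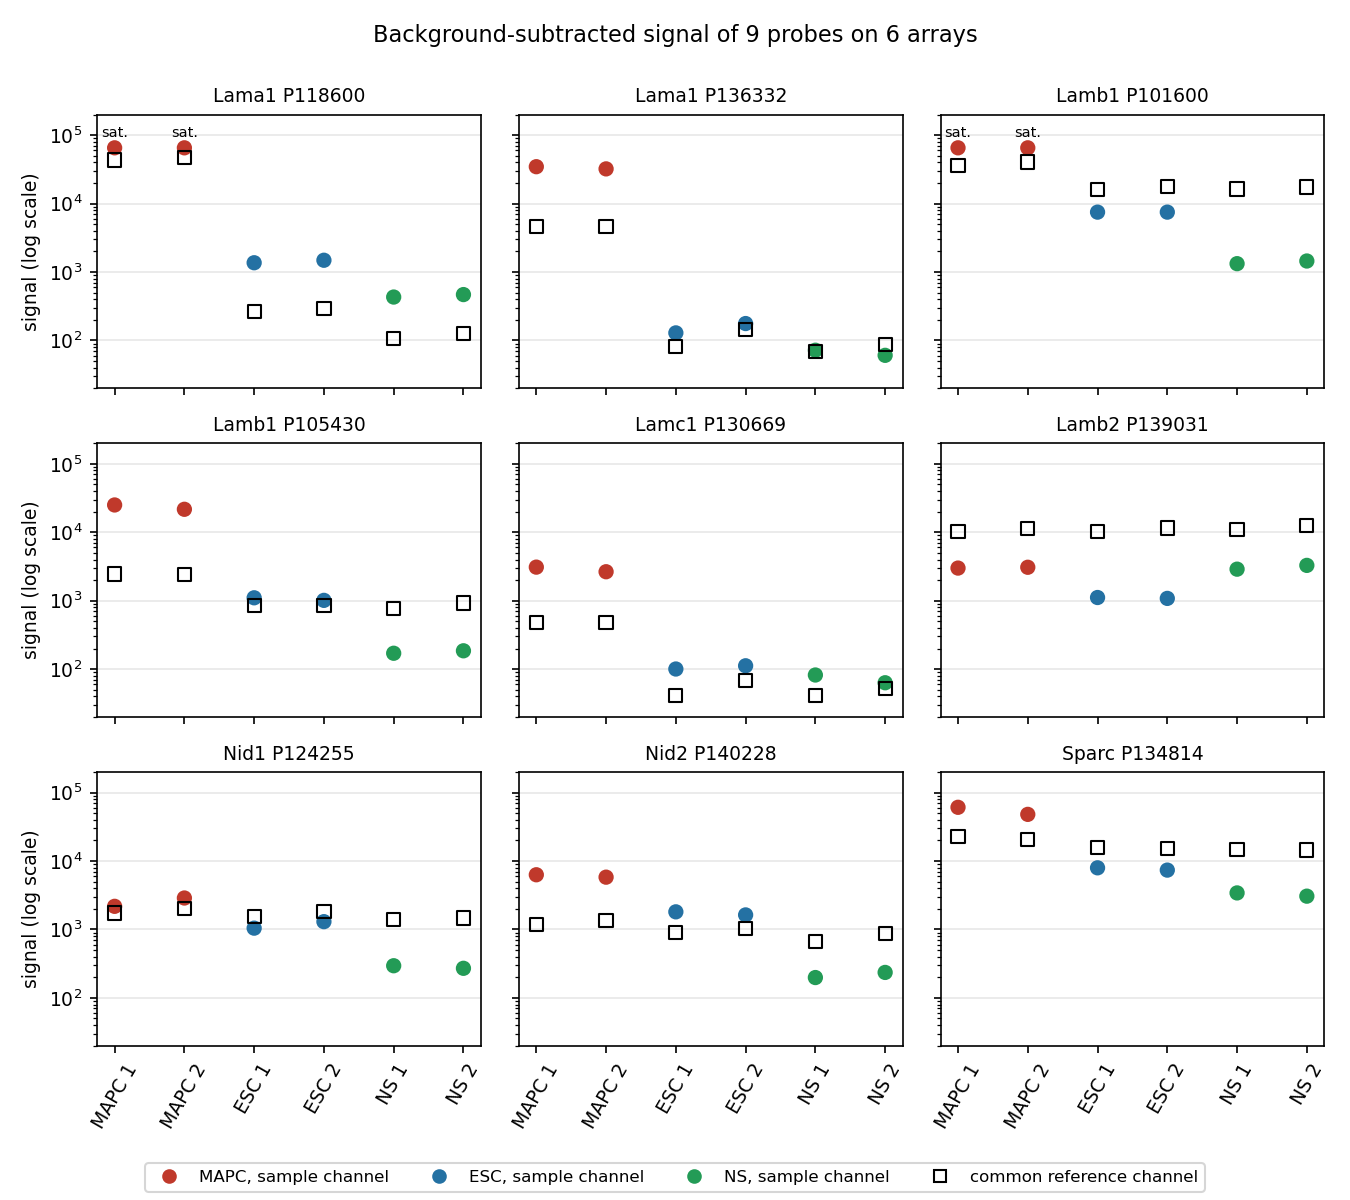
Background-subtracted signal (log scale, y axis) of the 9 member probes on the 6 arrays (x axis). Filled circles are the sample channel, coloured by cell type, open squares the common reference channel, and "sat." marks saturated sample spots. For both Lama1 probes and Lamc1 the reference squares rise with the sample on the MAPC arrays, although the reference RNA is the same on all 6.

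The reference channel held the same RNA on every array. For the members outside laminin-111 its readings moved little. For Lamb2 the mean MAPC reading was 0.959 times the mean of the 4 other arrays, for Nid1 1.21 times, for Nid2 1.45 times and for Sparc 1.46 times. For Lama1 it was not constant. A_66_P118600 gave a reference signal of 43341 and 46881 on the MAPC arrays, against 105 to 290.4 on the other 4, a ratio of 231. A_66_P136332 gave 4602 and 4635 against 69.7 to 142, a ratio of 48.7. The Lamc1 reference was 9.48 times as bright on the MAPC arrays, and the Lamb1 references were 2.86 times (A_66_P105430) and 2.26 times (A_66_P101600) as bright.

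The reference signals were fitted alone, as log2 signal relative to each array's upper quartile, over 39403 probes with limma and Benjamini-Hochberg adjustment at 0.05. Reference readings differed for 0.688% of probes between the MAPC and ESC arrays, 1.18% between MAPC and NS, and 0.383% between ESC and NS. Of the 9 member probes, 5 passed in both MAPC contrasts, namely both Lama1, both Lamb1 and the Lamc1 probe. Lama1 A_66_P118600 had reference differences of 7.92 ± 0.19 (log2 ± SE, n = 2 arrays a group, limma adjusted p = 1.59e-07) between MAPC and ESC arrays and 9.10 ± 0.19 (limma adjusted p = 4.23e-08) between MAPC and NS arrays. It also passed between ESC and NS arrays, at 1.17 ± 0.19 (limma adjusted p = 0.0382).

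Reference readings moved with bright samples across the whole series too. Among probes with a low reference (under 1000) whose sample signal exceeded 2000 and was at least 8 times brighter on both MAPC arrays than on any other, the reference was a median of 1.94 times as bright, and it stood above all other arrays for 23 of 28. The corresponding counts were 31 of 34 for probes bright in ESC (median 2.40 times) and 58 of 67 for probes bright in NS (median 2.22 times). Among all low-reference probes the share whose reference stood above the other arrays was 0.921% for MAPC, 5.07% for ESC and 1.78% for NS. The reference rise amounted to a median of 7.79% of the sample rise for probes bright in MAPC, and to 13.6% for Lama1 A_66_P136332 and 15.5% for Lamc1. By its limits the MAPC set takes in member probes, Lamc1 among them, so its figures are not separate from the members. For the saturated Lama1 probe the share has no meaning. What raised the reference readings was not tested.

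**Figure D2:**
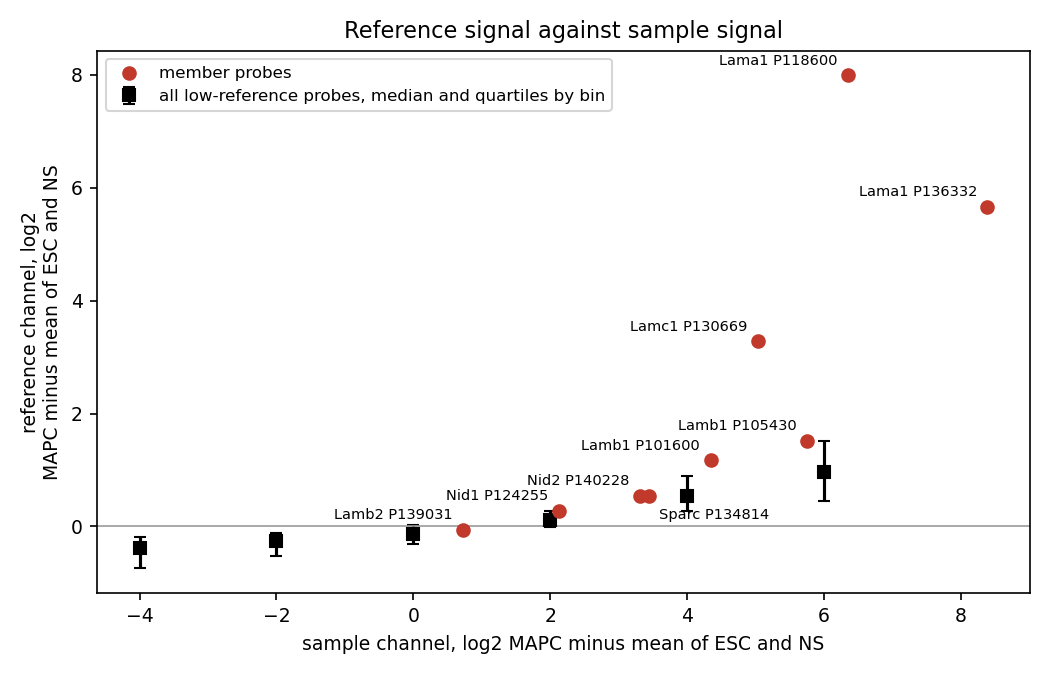
Reference-channel difference against sample-channel difference, both as log2 MAPC minus the mean of ESC and NS. Squares with bars are medians and quartiles of low-reference probes binned by sample difference (the outermost squares stand for all values under -3 and over 5), and circles are the 9 member probes. The bin medians rise from -0.38 to 0.96. Both Lama1 probes and Lamc1 lie above the last bin's upper quartile of 1.52. That bin holds 21 probes and was not cleared of members. Its upper quartile is the value of Lamb1 A_66_P105430, so it is no separate benchmark for the members.

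By the ratio of sample to reference, the measure for which the arrays were designed, the Lama1 probes gave opposite answers. A_66_P118600 had a log2 ratio of 1.04 on the first MAPC array, 3.38 and 3.49 in ESC, and 2.71 and 2.71 in NS. Its spot on the second MAPC array was marked non-uniform in the reference dye and left out of the fit, and read 1.19 where kept. A_66_P136332 had 3.83 on the second MAPC array, 1.38 and 1.33 in ESC, and 0.69 and 0.55 in NS. Its spot on the first MAPC array carried the same mark, and read 3.65 where kept. Each fitted Lama1 difference with MAPC therefore rests on 1 MAPC array, whose spread is assumed to match that of the other groups.

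MAPC minus ESC was -2.39 ± 0.08 (log2 ratio difference ± SE, limma adjusted p = 9.53e-07) for A_66_P118600 and 2.47 ± 0.08 (limma adjusted p = 1.26e-06) for A_66_P136332. MAPC minus NS was -1.67 ± 0.08 (limma adjusted p = 3.42e-06) and 3.21 ± 0.08 (limma adjusted p = 2.47e-07) in the same order. Of 2694 genes with at least 2 tested probes, Lama1 was the only 1 with opposite calls of 2-fold or more in MAPC minus ESC. In MAPC minus NS it was 1 of 3, beside Sox21 and Tango6. A difference of any size between probes of a gene was common, and passed for 32.8% of these genes between MAPC and ESC, for 42.1% between MAPC and NS, and for 32.4% between the other two. Between ESC and NS, where no Lama1 spot was saturated, the 2 probes gave 0.72 ± 0.06 and 0.73 ± 0.07, and their difference of -0.01 ± 0.09 did not pass (limma adjusted p = 0.965). Averaged over its unmarked probes, Lama1 had a MAPC minus ESC difference of 0.04 ± 0.73 (limma adjusted p = 0.975), a mean that describes neither probe. Each MAPC array kept only 1 Lama1 probe, a different 1 on each. The SE of this mean thus takes in the gap between the probes, beside any spread between replicate arrays.

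In the sample channel alone, on spots kept whatever their mark and scaled to each array's upper quartile, both Lama1 probes were higher in MAPC. A_66_P136332 was higher by 7.79 ± 0.20 (log2, limma adjusted p = 1.44e-06) than in ESC and by 8.91 ± 0.20 (limma adjusted p = 3.09e-07) than in NS. A_66_P118600, saturated in MAPC, was higher by 5.43 ± 0.19 (limma adjusted p = 1.68e-06) and 6.98 ± 0.19 (limma adjusted p = 3.53e-07) on the same scale. As bounds for the saturated spots, from means of the sample channel after loess and between-array normalization (which without dye swaps stay open to dye bias), Lama1 was at least 37.6-fold higher in MAPC than in ESC and at least 110.9-fold higher than in NS. The bounds for the saturated Lamb1 probe were 8.02-fold and 36.3-fold. In this channel 20.9% of all probes passed in MAPC minus ESC and 28.9% in MAPC minus NS, and 8.64% and 12.7% passed as higher in MAPC. The direction of Lama1 by probe A_66_P118600 thus depends on whether its reference reading, itself raised on the MAPC arrays, enters the value.

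**Figure D3:**
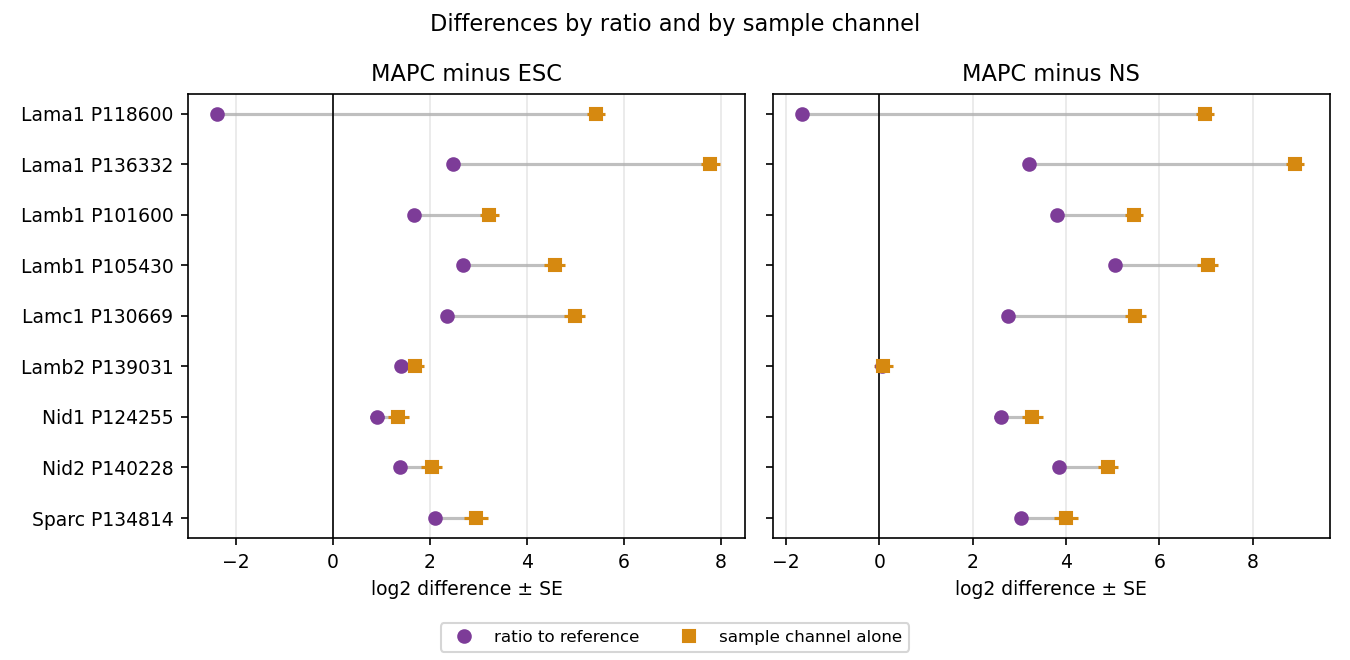
Log2 differences ± SE of the 9 member probes for MAPC minus ESC and MAPC minus NS (x axes), by ratio to the reference (circles) and by sample channel alone with all spots kept (squares). The 2 measures differ in sign for Lama1 A_66_P118600, and Lamb2 against NS lies near 0 on both.

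Apart from Lama1, the ratios kept the order seen in the sample channel with smaller differences. By ratio, 8 of 9 member probes were higher in MAPC than in ESC and 1 was lower (the saturated Lama1 probe), where 38.4% of 39388 tested probes passed, 16.2% as higher and 22.2% as lower. Against NS 7 were higher, 1 was lower and 1 did not pass, where 44.2% of 39387 probes passed, 21.8% as higher and 22.3% as lower. A call in these arrays is common, so the sizes say more than the counts: 7 of 9 member probes were at least 2-fold higher in MAPC than in ESC, where 2.99% of all probes were, and 7 of 9 were so against NS, where 4.52% were. The saturated Lama1 probe was the 1 at least 2-fold lower in each contrast, where 5.57% and 6.84% of probes were. In the sample channel alone that probe was higher instead: all 9 member probes were at least 2-fold higher in MAPC than in ESC, where 5.25% of all probes were, the least being Nid1 at 1.35 ± 0.22. Against NS 8 of 9 were so, all but Lamb2, where 7.09% of probes were. The all-probe median was 0.01 in MAPC minus ESC and 0.03 in MAPC minus NS. The contrasts share arrays, so their values are given side by side and not as separate support.

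By ratio, both Lamb1 probes were higher in MAPC. A_66_P105430 had log2 ratios of 4.17 and 4.31 in MAPC, 1.55 and 1.55 in ESC, and -0.79 and -0.83 in NS. It was higher in MAPC than in NS by 5.05 ± 0.06 (limma adjusted p = 6.03e-09), the 22nd largest rise of all probes, and higher than in ESC by 2.69 ± 0.06 (limma adjusted p = 5.45e-08). A_66_P101600, whose MAPC spots were saturated, had 1.32 and 1.42, -0.31 and -0.29, and -2.50 and -2.40 in the same order of cell types. Its differences were 1.67 ± 0.06 against ESC (limma adjusted p = 5.46e-07) and 3.82 ± 0.06 against NS (limma adjusted p = 8.37e-09). The Lamb1 probes thus had the same direction, and because the sample signal of A_66_P101600 was capped in MAPC, their sizes cannot be set against each other there. Between ESC and NS, where no Lamb1 spot was saturated, the difference between the probes was not called (-0.21 ± 0.07, limma adjusted p = 0.0655).

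Lamc1 had log2 ratios of 3.74 and 3.81 in MAPC, 1.49 and 1.33 in ESC, and 1.13 and 0.89 in NS. It was higher in MAPC by 2.36 ± 0.09 against ESC (limma adjusted p = 6.15e-07) and by 2.76 ± 0.09 against NS (limma adjusted p = 1.69e-07). In the sample channel alone the same differences were 4.98 ± 0.22 and 5.49 ± 0.22, larger than by the ratio, whose reference was raised on the MAPC arrays. Sparc had 1.93 and 2.04 in MAPC, -0.18 and -0.06 in ESC, and -1.03 and -1.09 in NS. It was higher in MAPC by 2.11 ± 0.07 (limma adjusted p = 2.62e-07) and 3.04 ± 0.07 (limma adjusted p = 2.75e-08), and by 2.95 ± 0.25 and 4.00 ± 0.25 in the sample channel.

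Nid2 had log2 ratios of 3.40 and 3.41 in MAPC, 2.10 and 1.96 in ESC, and -0.43 and -0.47 in NS. Its difference was 1.37 ± 0.06 against ESC (limma adjusted p = 1.42e-06) and 3.86 ± 0.06 against NS (limma adjusted p = 7.94e-09). Nid1 varied most between the MAPC arrays, at 1.41 and 1.84, and had 0.59 and 0.85 in ESC and -0.95 and -1.001 in NS. It was higher in MAPC by 0.91 ± 0.14 against ESC (limma adjusted p = 0.00119), under 2-fold, and by 2.60 ± 0.14 against NS (limma adjusted p = 2.23e-06).

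Lamb2 had log2 ratios of -0.85 and -0.65 in MAPC, -2.14 and -2.16 in ESC, and -0.82 and -0.79 in NS. MAPC exceeded ESC by 1.40 ± 0.07 (limma adjusted p = 2.94e-06). MAPC minus NS was 0.05 ± 0.07 (limma adjusted p = 0.609), the value changed sign between the days on which array images were extracted (-0.03 and 0.14), and the groups overlapped. The beta chains therefore differed in pattern: Lamb1 was lowest in NS, and Lamb2 was lowest in ESC.

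**Figure D4:**
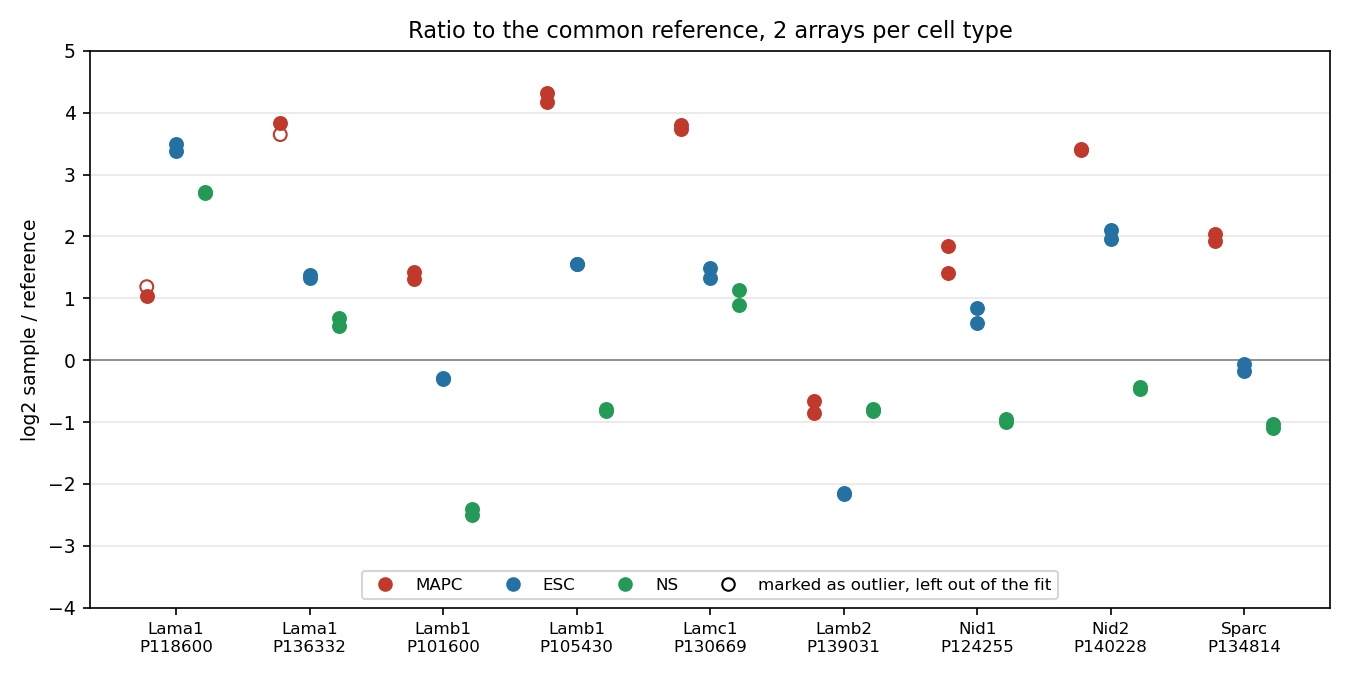
Log2 ratio of sample to common reference (y axis) for each member probe (x axis), 1 point per array, coloured by cell type. Open circles are the 2 Lama1 spots marked as outliers and left out of the fit. Lama1 A_66_P118600 is lowest in MAPC, the other Lama1 probe is highest there, and Lamb2 is lowest in ESC.

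Between ESC and NS, 8 of 9 member probes were higher in ESC and 1, Lamb2, was lower, where 38.6% of 39396 probes passed, 20.4% as higher and 18.2% as lower. At least 2-fold higher were 4 of the 9, where 4.82% of probes were, and at least 2-fold lower was 1, where 4.19% were. The 4 were Nid2, by 2.48 ± 0.06, both Lamb1 probes, by 2.15 ± 0.06 and 2.36 ± 0.06, and Nid1, by 1.69 ± 0.14. Sparc was higher in ESC by 0.94 ± 0.07 (limma adjusted p = 1.63e-05), and Lamb2 was lower by 1.35 on the log2 scale (a difference of -1.35 ± 0.07, limma adjusted p = 3.31e-06). In the sample channel the Lama1 differences were 1.55 ± 0.19 and 1.13 ± 0.20, larger than by ratio, and both passed, where 20.7% of probes passed and 10.1% as higher. In that channel 7 of 9 member probes were at least 2-fold higher in ESC than in NS, where 6.37% of probes were. Lamc1 was the weakest, at 0.40 ± 0.09 (limma adjusted p = 0.00868). Its call was lost in 9 of 22 alternative settings, with values of 0.29 to 0.51 where the test itself was missed. It was lost without the first ESC array (0.32) and without the second NS array (0.29), each of which left 1 array in its group. A smaller offset of 16 in the normexp background correction also lost it (0.45, limma adjusted p = 0.0549). So did the deposited processed signals (0.49, limma adjusted p = 0.128) and series matrix values (0.49, limma adjusted p = 0.123). All 3 fits of the sample channel alone lost it too (limma adjusted p = 0.110 to 0.169). The last setting was the 2-fold minimum. Fibroblast markers moved with these values: 10 of 14 were higher in ESC than in NS and 1 was lower. Their summed sample signal (relative to each array's upper quartile) was 32.2 to 44.4 in ESC, 19.9 to 21.3 in NS and 4.22 to 4.41 in MAPC. ESC had been kept on embryonic fibroblasts, and the part of such cells in the ESC values was not tested.

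For the list counts here and below, the shares over all probes were 16.2% higher and 22.2% lower in MAPC than in ESC. Against NS they were 21.8% and 22.3%. Fibroblast markers did not move with the members in MAPC. None of 14 was higher in MAPC, and 13 were lower than in ESC and 10 than in NS, with Postn (periostin) at -6.42 and -2.69, Dcn (decorin) at -2.95 and -2.26, and Col1a1 at -2.37 and -0.21. Well above background were all 14 on the ESC and NS arrays and all but 1 on each MAPC array. Markers of primitive and parietal endoderm, from a list that holds none of the members, were higher for 15 of 16 genes in both contrasts. The medians were 2.86 against ESC and 3.41 against NS, and the summed signal was 227 to 273 in MAPC, 16.6 to 18.9 in ESC and 9.24 to 9.34 in NS. The transcription factors Sox17 and Foxa2 stood at 5.43 and 4.20 against ESC and at 5.66 and 4.33 against NS, and the endocytic adaptor Dab2 at 2.19 and 2.75. Visceral endoderm products were not higher as a list, with 2 of 7 higher and 2 lower in each contrast (Afp 1.28 and 1.40, Apoe -3.81 and -2.48). Their summed signal was lowest in MAPC, at 3.15 to 3.40, against 61.7 to 63.1 in ESC and 13.3 to 14.1 in NS. A sum follows its brightest genes, and the list medians were 0.04 against ESC and 0.09 against NS. The genes lower than in ESC were Apoe and, by less, Amn (-1.13), so the sum does not describe the list as a whole.

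The labels' cell types were checked against other markers. Embryonic stem cell markers were lower in MAPC than in ESC for 11 of 11 genes, and higher in ESC than in NS for 9 of 11. Neural progenitor markers were lower in MAPC than in NS for 10 of 11 and lower in ESC than in NS for 9 of 11. Macrophage and blood markers were higher in MAPC for 0 of 6 genes and lower than in ESC for 3 of 6. Endothelial markers were mixed, with 5 of 9 higher and 3 lower against ESC and 3 higher and 1 lower against NS (Tek 2.06 and 2.68). No list defines MAPC.

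Of 4 other laminin and netrin genes, 0 were higher in MAPC than in ESC and 2 were lower: Lama2, the alpha chain of muscle laminin, at -0.92 ± 0.06, and Lamb3, a chain of the epidermal laminin, at -0.58 ± 0.07. Against NS 1 was higher and 2 were lower, with Lama2 at -0.65 ± 0.06. These 4 genes were dim. Their summed sample signal, relative to each array's upper quartile, was 0.52 to 0.74 in MAPC, 0.78 to 0.87 in ESC and 0.44 to 0.54 in NS. On the first MAPC array and the second NS array 1 of the 4 was not well above background. Of 3 measured type IV collagen chains, Col4a1 was higher in MAPC by 2.17 ± 0.08 against ESC and 3.33 ± 0.08 against NS. Col4a1 encodes a chain of the collagen network common to all basement membranes. Col4a3, a chain of the kidney and lung network, passed weakly against NS (0.18 ± 0.06, limma adjusted p = 0.0473) and was at -0.37 in the sample channel alone.

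Of 12 other basement membrane proteins measured, 1 was higher in MAPC in each contrast, Tinagl1, a secreted relative of cathepsin B, at 2.35 ± 0.06 and 2.53 ± 0.06. Lower than in ESC were 6, with 5 not called, and lower than in NS were 7, with 4 not called (list medians -0.27 and -0.51). Col18a1, the core protein from which endostatin is cleaved, stood at -5.44 ± 0.06 and -2.50 ± 0.06, and Fbln2 (fibulin 2) at -3.28 ± 0.10 in both. Fbln2 is also on the fibroblast list. No relative of Sparc matched it: of 7 SPARC family genes 0 were higher in either contrast, 2 were lower than in ESC and 5 lower than in NS. Fstl1, a follistatin-like relative, stood at -3.97 ± 0.06 and -3.52 ± 0.06, and Sparcl1 at -5.10 ± 0.23 against NS, from 1 NS array since its other spot was marked and left out.

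Receptors for laminin and type IV collagen divided. Of 13 measured, 3 were higher and 7 lower in MAPC than in ESC, and 5 were higher and 7 lower than in NS. Over all probes 16.2% were higher and 22.2% lower than in ESC, and 21.8% and 22.3% against NS. Higher were Cd151, the tetraspanin partner of laminin-binding integrins, at 1.96 ± 0.08 and 2.00 ± 0.08, and the integrin chain Itga3 against NS, at 1.32 ± 0.15. Dag1, which encodes dystroglycan, a laminin receptor, was at -1.66 ± 0.09 against ESC. Dmd, the dystrophin gene whose product ties dystroglycan to actin, was at -2.93 ± 0.08 and -3.73 ± 0.08, and the proteoglycan gene Sdc2 at -2.53 ± 0.06 and -2.54 ± 0.06. Genes of dystroglycan glycosylation, the sugar chains that laminin binds, were higher than in ESC for 7 of 9 with 0 lower, mostly by little (median 0.32). Gmppb, which makes GDP-mannose, stood at 1.21 ± 0.06 and 2.07 ± 0.06. Against NS 5 were higher and 2 lower.

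Genes for folding, secreting and crosslinking collagen were higher in MAPC for 10 of 12 in both contrasts, with medians of 1.76 and 1.71. Serpinh1, the collagen chaperone of the endoplasmic reticulum, was higher by 2.65 ± 0.11 against ESC, and the lysyl hydroxylase gene Plod2 by 3.18 ± 0.07. The prolyl hydroxylase gene P4ha2 was higher by 2.71 ± 0.07 and 2.57 ± 0.07, and the collagen galactosyltransferase gene Colgalt1 by 2.56 ± 0.06 against NS. The 2 lower genes were crosslinking oxidases, Lox at -3.12 ± 0.07 and -0.21 ± 0.07 (limma adjusted p = 0.0490 against NS), and Loxl3 at -3.66 ± 0.06 and -1.28 ± 0.06. Their relative Loxl2, which crosslinks type IV collagen, was higher, by 2.19 ± 0.10 against NS.

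Of 15 matrix proteases and their inhibitors, 8 were lower and 2 higher in MAPC than in ESC, and 6 were lower, 3 higher and 6 not called against NS. The share higher against NS lay near the 21.8% of all probes. Plat, the tissue plasminogen activator gene, was higher by 3.17 ± 0.19 than in ESC and is also on the parietal endoderm list. Ctsl, which encodes cathepsin L, was higher by 1.20 ± 0.13 and 2.29 ± 0.13. The stromelysin gene Mmp3 was at -3.87 ± 0.36 against ESC. The membrane-type proteases Mmp14 and Mmp15 were at -2.12 ± 0.09 and -3.45 ± 0.06 against NS, the former from 1 NS array.

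**Figure D5:**
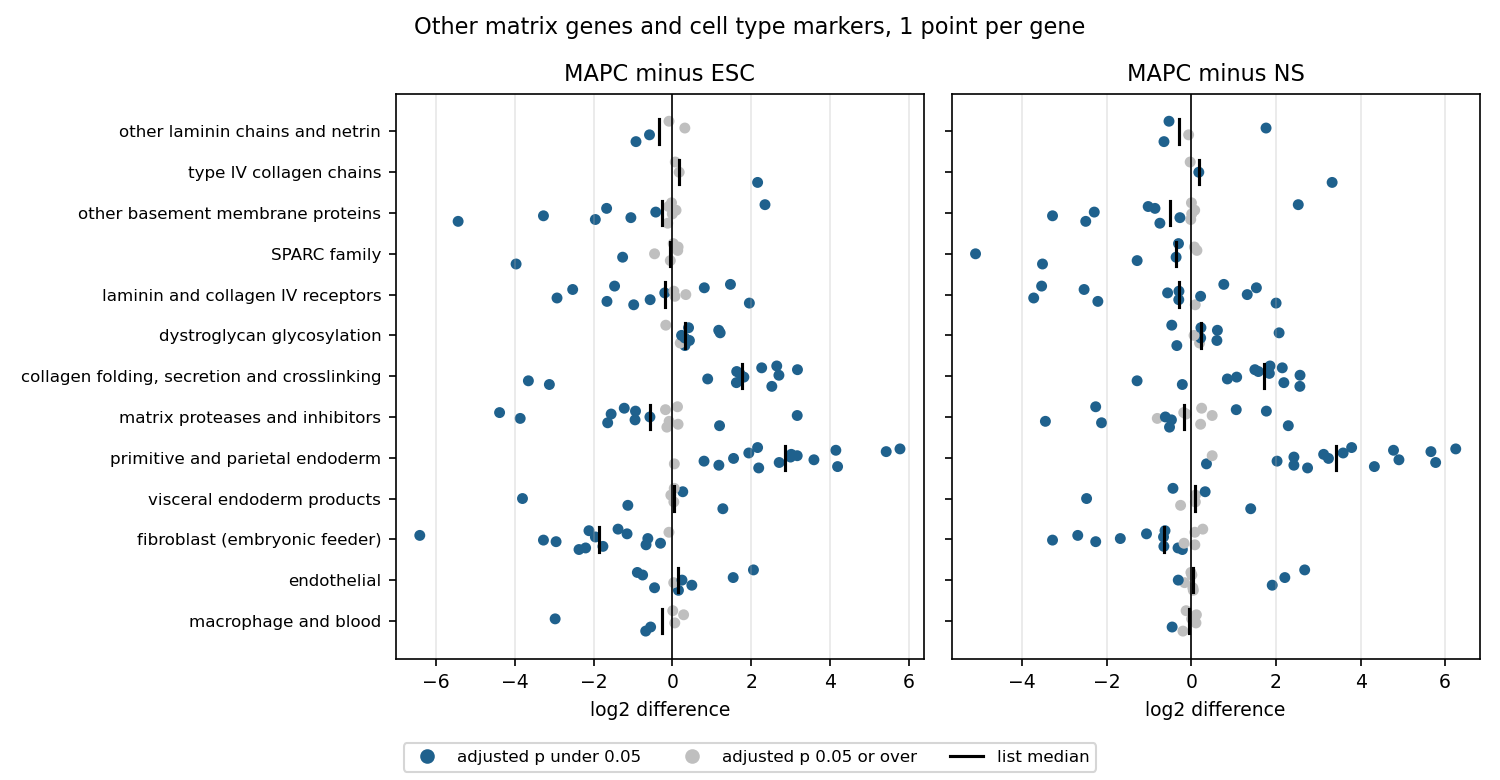
Log2 ratio differences (x axes) of measured genes in 8 lists of matrix genes and 5 lists of cell type markers, 1 point per gene, with the list median as a bar. Filled dark points have an adjusted p under 0.05. Collagen folding genes and primitive and parietal endoderm markers lie mostly to the right of 0 in both panels, and fibroblast markers to the left.

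The genes whose log2 ratios lay closest to a member over the 6 arrays, after centring each gene on its own mean, were listed by root mean square distance among 11950 or 11951 other tested genes. Closest to Sparc was Col4a1, at 0.125, followed by Ptpn14 (0.143) and P3h1, a prolyl 3-hydroxylase gene (0.144). Closest to Lamc1 were Abhd5 (0.109), P3h1 (0.122), Paics (0.123), Ap2a2 (0.130) and Tinagl1 (0.135). Lama1 A_66_P136332 was closest to Stard10 (0.0750), Dnajc3 (0.0866), P3h1 (0.106) and Gfpt1 (0.115), with Sparc itself next at 0.131. The Lamb1 probes had different neighbours: Amotl2 (0.117) and Nid2 (0.161) for A_66_P101600, and the small heat shock gene Cryab (0.204) and the tissue factor gene F3 (0.214) for A_66_P105430. Lama1 A_66_P118600, whose sample spot was saturated and whose reference was raised on the MAPC arrays, lay nearest to 3110009E18Rik (0.0763) and Tiam2 (0.0835). These distances describe 6 arrays of 3 cell types and carry no test.

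Promoter sequences from RefSeq (build GRCm38.p6) were matched for 6 of the 10 genes by symbol. They are shown for Sparc and Nid1, which were ordered alike (MAPC over ESC over NS). Lamb1 was matched and ordered so too, and is not shown. Its 250 bases before the annotated start had a GC content of 62.0% and held GGGCGG 2 times. Each line holds the 250 bases before the annotated start, with any GGGCGG (the GC box, on either strand) in capitals.
Sparc, chr11:55420081-55420330, minus strand: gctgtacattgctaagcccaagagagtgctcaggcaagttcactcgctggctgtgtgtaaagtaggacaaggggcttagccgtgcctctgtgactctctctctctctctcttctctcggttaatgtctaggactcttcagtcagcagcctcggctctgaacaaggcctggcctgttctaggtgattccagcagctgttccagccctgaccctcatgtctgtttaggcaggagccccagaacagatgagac
Nid1, chr13:13437352-13437601, plus strand: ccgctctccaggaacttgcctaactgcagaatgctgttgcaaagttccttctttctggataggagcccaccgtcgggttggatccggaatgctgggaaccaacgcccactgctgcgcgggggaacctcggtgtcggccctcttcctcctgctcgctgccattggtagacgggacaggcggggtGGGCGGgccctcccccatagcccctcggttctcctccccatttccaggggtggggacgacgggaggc
GC content was 54.0% for Sparc and 64.4% for Nid1, against a median of 52.4% over 32851 promoters. GGGCGG occurred 0 times in the Sparc window and 1 time in the Nid1 window, and 32.7% of all promoters held it. TATAAA, searched on both strands, occurred in neither window, and 12.4% of all promoters held it. Such matches describe these windows only.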

How the data were processed

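The deposited scanner files hold, per spot and dye, mean and local background intensity and the file headers name Agilent Feature Extraction A.7.5.1. The authors' processed intensity and the deposited series matrix (log10 values) served only as alternatives. Here intensities were background-corrected (normexp, offset 50) and loess-normalized within arrays in limma 3.58.1 under R 4.3.3. Sample-to-reference ratios are log2. Control spots and outlier-marked spots were left out and spots of a probe averaged. Tests covered the 39403 of 41006 probes whose sample signal carried the mark well above background on both arrays of some group. All 6 arrays entered a single limma fit (3 residual degrees of freedom, two-sided, Benjamini-Hochberg within a contrast, threshold 0.05), tested on simulated data. Errors are moderated standard errors. Arrays have no sequencing depth, and their number limits precision.

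Of the probes, 15294 were named by accession, 15 by symbol and 72 by older symbol through RefSeq, and 25625 stayed unnamed. Members, lists and tests were chosen with earlier results of these data known. Every member probe is described. Of each matrix list up to 3 rises and 3 falls past the threshold were eligible for naming, by size. Up to 4 marker genes a list were named as examples after their values were seen. For the probes of genes outside the members, the brightest probe was used. Per the file headers, images of same-numbered arrays were extracted on the same day. Deviations of same-numbered arrays correlated at 0.10 (MAPC and ESC), 0.16 (MAPC and NS) and 0.21 (ESC and NS). Alternatives changed background correction, normalization, channel, filter, marked spots, probe rule, block, fit, arrays and threshold. Columns left without a sample numbered 0. Some list genes are not reported here.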

Additional observations from a re-analysis of the deposited data

How the results depend on the processing

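Across alternatives, member probe differences kept direction and side of the threshold in 550 instances, lost the call in 14 and changed sign in 8. Lama1 A_66_P118600 changed sign in the sample channel alone: MAPC minus ESC became 5.47 (5.43 with marked spots kept, 5.13 after loess and between-array normalization), and MAPC minus NS became 7.02 (6.98 and 6.69). The settings with marked spots kept and with between-array normalization were chosen after seeing the data. The count of lower member probes became 0 in both contrasts under those 3 settings, and 0 against NS without background subtraction, where this probe stood at -0.06 (limma adjusted p = 0.584). Leaving out arrays gave 0 to 1 lower member probes in both contrasts, 0 without the first MAPC array, the only 1 with that probe unmarked. Lamb2 in MAPC minus NS, not called, ranged from -0.047 (without the second MAPC array) to 0.15 when an array was left out, and became -0.11 after between-array normalization. Col4a3 in MAPC minus NS became -0.37 in the sample channel alone, with or without marked spots, and -0.10 after between-array normalization. Counts of all probes called, 15144, 17397 and 15214 (MAPC minus ESC, MAPC minus NS, ESC minus NS), became 8280, 11410 and 8206 in the sample channel alone, 8244, 11368 and 8169 with marked spots kept as well, and 3370, 4472 and 3549 with a 2-fold minimum. The first became 9863 after between-array normalization. The 2-fold minimum left 4 of 8 member probes higher in ESC than in NS. With the replicate number as a block, which equals the extraction day, the counts were 15781, 18115 and 15735, and member counts stayed at 8 and 1, 7 and 1, and 8 and 1. The block changed no member call, and within each day member differences kept their sign except Lamb2 in MAPC minus NS (each Lama1 difference with MAPC has a value for 1 day only). The cause of these changes was not tested. Saturation and raised reference readings limit Lama1 and Lamb1, and 2 arrays a group limit all values.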
